A study of Bos taurus with 8 samples.

Results

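The proteasome genes were followed in primary cultures of bovine muscle cells from beef and dairy bulls. A gene was included if the RefSeq symbol of the accession of its array probe began with PSMA, PSMB, PSMC, PSMD, PSME, PSMF or PSMG. This rule gave 35 genes of the 7788 genes that could be named on the array, with 1 probe for each. The RefSeq table holds 50 symbols of this kind, and the other 15 had no matched probe, namely PSMA8, PSMB1, PSMB6, PSMB10, PSMC3IP, PSMC6, PSMD5, PSMD7, PSMD8, PSMD9, PSMD10, PSME3, PSME4, PSMF1 and PSMG4. Of the 35 genes, 34 encode subunits, activators or assembly chaperones of the proteasome. The remaining gene, PSME3IP1, is named for a partner of an activator and met the rule by its prefix alone.

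The study compared Limousin (LIM) and Hereford (HER) bulls, as beef breeds, with Holstein-Friesian (HF) bulls as the dairy reference, and asked which transcripts set the muscle cells of beef breeds apart. The bulls, 4 per breed, were 15 months old. Cells were isolated from their semitendinosus muscle and frozen while proliferating, at 80% confluence. None of the breeds was treated. RNA of LIM cells (Cy5) was hybridized beside RNA of HF cells (Cy3) on 4 arrays, and RNA of HER cells (Cy3) beside RNA of HF cells (Cy5) on the other 4. The arrays of a comparison shared 1 slide, and within a comparison the effects of breed, dye orientation and slide cannot be told apart. The HF bull on each array is not given in the sources used here. Myoblasts were enriched by preplating, which leaves other cells in the culture.

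The proteasome is the protease complex that degrades proteins tagged with ubiquitin. Its barrel-shaped core is built of outer rings of alpha subunits and inner rings of beta subunits, some of which carry the catalytic sites, and a regulatory cap of ATPases and non-ATPase subunits recognizes, unfolds and feeds in the substrate. Interferon induces immune versions of the catalytic subunits, which take the place of the constitutive ones and shift the peptides produced towards those presented by major histocompatibility complex class I. In skeletal muscle, the complex is known above all for the breakdown of myofibrillar proteins during atrophy and for protein turnover during differentiation.

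Values are log2 ratios of a beef breed over HF, so that a negative value means a lower level in beef cells. A gene was called at an adjusted p of at most 0.05 in limma, with Benjamini-Hochberg adjustment over 17631 tested probes. All 35 genes were well above background in all 16 channels (2 per array) and had a value on every array. Per channel, 68.8% to 85.2% of all probes exceeded background to this degree. LIM replicate 4 stood apart from the other LIM arrays: over all tested probes its ratios correlated with theirs at 0.345 to 0.558, against 0.625 to 0.779 among the other 3. The correlation among HER arrays was 0.33 to 0.652. Of the 9 muscle markers with a probe, all were well above background in 16 channels. In each beef breed, 7 were called higher than in HF (16.6% of all probes in LIM and 10.7% in HER). NCAM1 (-0.11 in LIM and 1.27 in HER) and MYOD1 (0.88 and 1.12) were not called in LIM or HER. PAX7, which marks satellite cells, had no matched probe.

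Proteasome genes lay mostly below HF in both beef breeds, by small amounts. The median log2 ratio over the 35 genes was -0.22 in LIM and -0.24 in HER, against -0.01 and -0.06 over all tested probes. In LIM, 8 genes (22.9%) were lower and 1 was higher. Over all probes of that comparison, 19.3% were lower and 16.6% were higher. In HER, 5 genes (14.3%) were lower and 0 were higher, against 14.7% and 10.7% of all probes. The share of lower genes within each comparison was therefore near that of the array as a whole. At the threshold of the study's methods, an unadjusted p of at most 0.05 (here that of limma) and a fold of at least 1.3, 10 genes were lower and 1 was higher in LIM (21.3% and 20.3% of all probes), and 7 were lower and 0 higher in HER (19.9% and 15% of all probes).

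In the mean of both comparisons, in which a dye effect of a probe cancels, 16 of the 35 genes (45.7%) were lower in beef cells and 1 was higher. Over all tested probes, the shares were 26.2% and 21.4%, and 28.3% were lower among the 14035 probes that were well above background in all channels, as every proteasome gene was. The mean ratio was below 0 for 31 genes (88.6%) and for 53% of all probes. On all 8 arrays, 11 genes (31.4%) were lower in beef cells, 0 were higher, and 16.9% of all probes were lower. The fit treats the 8 arrays as independent, although HF bulls may be shared by both comparisons. In a bulk culture, fewer cells of a type and less RNA per cell cannot be told apart.

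These counts depended on LIM replicate 4, on which the median over the 34 genes of the proteasome was 0.07, against -0.35, -0.27 and -0.28 on the other LIM arrays. Without it, 13 genes were lower and 1 was higher in LIM (22.1% and 19.1% of all probes), 11 were lower and 0 higher in HER (19.9% and 14%), whose fit shares its estimate of the spread with LIM, and 21 were lower and 1 higher in the mean (30.1% and 24%). Leaving out LIM replicate 1, 2 or 3 instead left 1, 1 and 2 genes called in LIM. Of all 17631 probes, 2629, 2405 and 2110 were then lower in LIM, and 2044, 2062 and 1686 were higher. Leaving out HER replicate 1, 2 or 3 left 2, 1 and 2 genes called in HER. Here 896, 901 and 1570 of all probes were lower, and 678, 626 and 1090 were higher. Leaving out HER replicate 1 left 11 genes called in the mean, where 3838 of all probes were lower and 3060 higher. Whichever array was left out, PSMB3 stayed called in LIM, PSMB8 in HER, and 11 genes in the mean (PSMA5, PSMA6, PSMB3, PSMB7, PSMB8, PSMB9, PSMB11, PSMC1, PSMG1, PSMG2 and PSME3IP1). Every other call was lost without at least 1 array. The share of all probes that stayed called whichever array was left out is not given here.

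**Figure D1:**
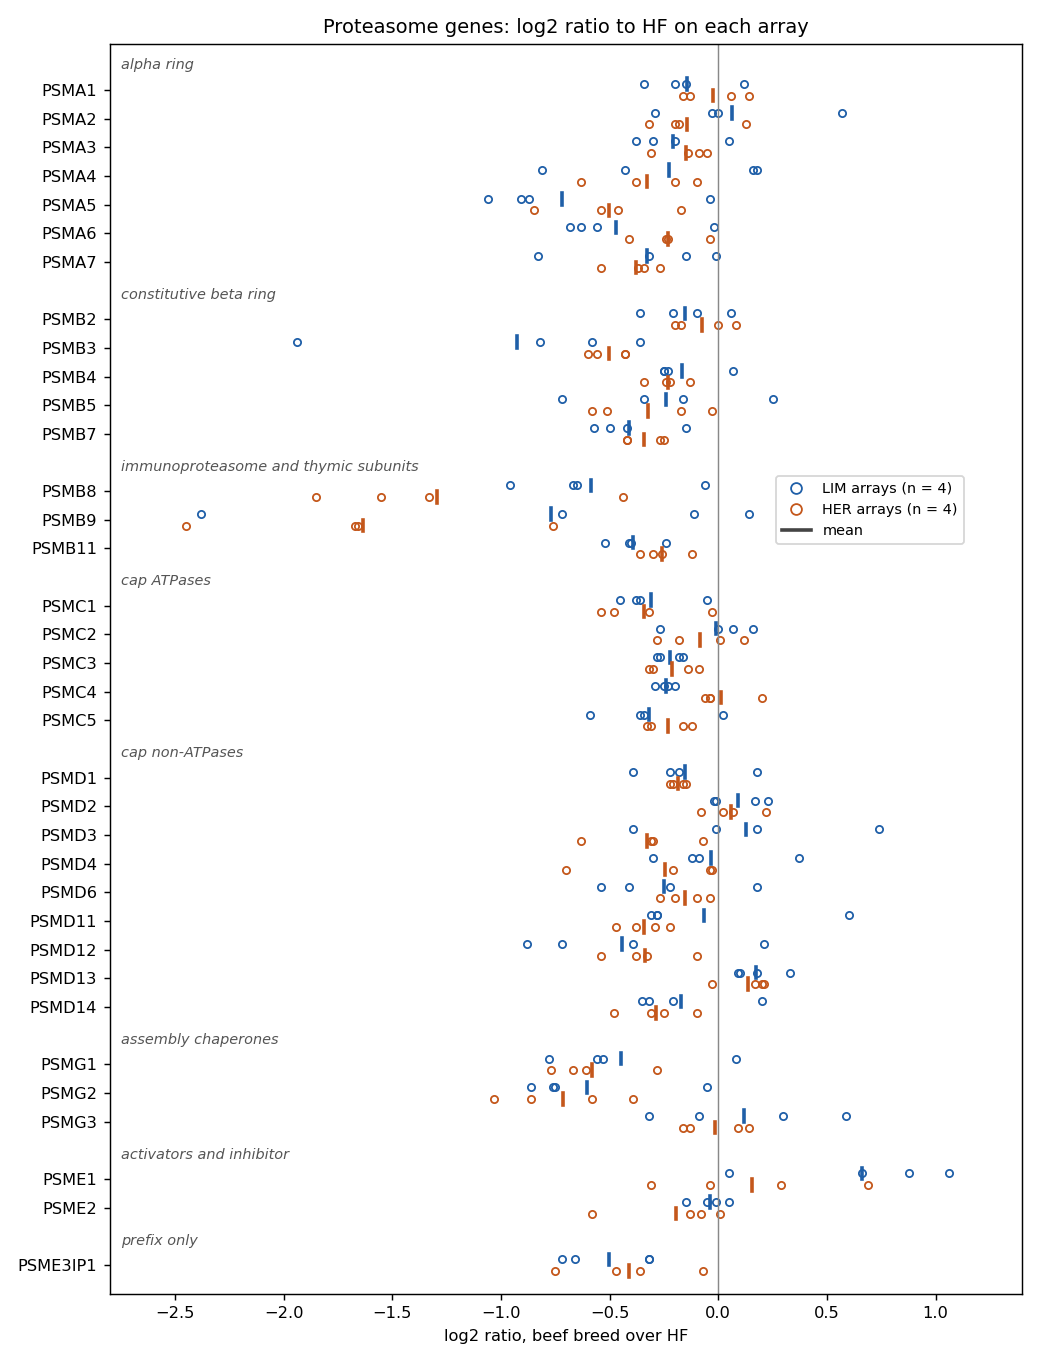
Log2 ratio of beef over HF (x axis) for each of the 35 genes (y axis), in groups by role; open circles are single arrays (4 LIM in blue, 4 HER in orange) and vertical bars are means. Most circles lie left of 0, PSMB8 and PSMB9 reach the lowest HER values, and PSME1 lies right of 0 on 6 of 8 arrays.

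The alpha ring forms the outer rings of the core and its gate. Of its 7 genes with a probe, 2 were lower in LIM (PSMA5 and PSMA6), 0 were called in HER, and 3 were lower in the mean (PSMA5, PSMA6 and PSMA7). Of all probes, 19.3% were lower in LIM, 14.7% in HER and 26.2% in the mean. The ratio of PSMA5 was -1.06, -0.87, -0.91 and -0.04 on LIM replicates 1 to 4 and -0.54, -0.85, -0.46 and -0.17 on HER replicates 1 to 4. It was below 0 on every array, with replicate 4 nearest to 0 in each breed. The mean was -0.72 ± 0.46 (SD, n = 4) in LIM, a 1.65-fold lower level (limma adjusted p = 0.0168). The HER mean of -0.51 ± 0.28 (SD, n = 4) was not called (limma adjusted p = 0.0732), but was called without LIM replicate 4 (limma adjusted p = 0.0191). Without LIM replicate 1, 2 or 3, the LIM call was lost (-0.67 to -0.61; limma adjusted p = 0.0637 to 0.0743).

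PSMA6 showed -0.63, -0.68, -0.56 and -0.02 on the LIM arrays and -0.23, -0.41, -0.24 and -0.04 on the HER arrays. It was likewise below 0 throughout and nearest to 0 on replicate 4. Its means were -0.47 ± 0.31 in LIM and -0.23 ± 0.16 in HER (SD, n = 4 each; limma adjusted p = 0.0248 and 0.225). The LIM call was lost without LIM replicate 1, 2 or 3 (limma adjusted p = 0.0875 to 0.0972). PSMA7 had -0.32, -0.01, -0.15 and -0.83 on the LIM arrays and -0.54, -0.34, -0.27 and -0.37 on the HER arrays. Here LIM replicate 4 was the lowest array, not the highest. Over both breeds its ratio was -0.35 ± 0.10 (SE, n = 8; limma adjusted p = 0.0191), and -0.33 without HER replicate 1 (limma adjusted p = 0.0515). The mean ratios of PSMA1, PSMA2, PSMA3 and PSMA4 over both breeds lay between -0.28 and -0.04, and none was called.

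The constitutive beta ring holds the catalytic subunits of most tissues (PSMB5 and PSMB7, with PSMB6, which had no matched probe) and structural subunits. Of its 5 genes with a probe, 2 were lower in LIM (PSMB3 and PSMB7), 1 was lower in HER (PSMB7), and 3 were lower in the mean (PSMB3, PSMB4 and PSMB7). The shares of all probes that were lower were 19.3%, 14.7% and 26.2%. For PSMB7, which carries the trypsin-like site, the ratio was -0.42, -0.57, -0.50 and -0.15 on the LIM arrays and -0.42, -0.27, -0.42 and -0.25 on the HER arrays. All 8 arrays lay below 0 in a narrow range. The means were -0.41 ± 0.18 in LIM and -0.34 ± 0.09 in HER (SD, n = 4 each), or 1.33-fold and 1.27-fold lower than in HF (limma adjusted p = 0.0178 and 0.0463). The LIM call was lost without LIM replicate 1, 2 or 3 (limma adjusted p = 0.0547 to 0.0796), and the HER call without any array except LIM replicate 4 (limma adjusted p = 0.0610 to 0.147).

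PSMB3, a structural subunit, had -0.82, -0.58, -0.36 and -1.94 on the LIM arrays and -0.56, -0.43, -0.60 and -0.43 on the HER arrays. LIM replicate 4 was far below all other arrays. In single channels, given as log2 signal relative to the channel's median over the tested probes, the LIM signal of PSMB3 was 2.73 on that array and 3.80 to 4.20 on the others, whereas the HF signal was 4.58 to 4.70 on the LIM arrays. The mean LIM ratio was -0.93 ± 0.70 (SD, n = 4; limma adjusted p = 0.0150), and -0.59 without LIM replicate 4 (limma adjusted p = 0.00802). It was not called with the LIM arrays fitted alone. In HER, where the arrays lay close together, the mean of -0.51 ± 0.09 (SD, n = 4) was not called (limma adjusted p = 0.134). The HER fit shares its estimate of the spread with LIM. Without LIM replicate 4, the HER mean was called (-0.51; limma adjusted p = 0.0112).

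PSMB5, the chymotrypsin-like subunit that PSMB8 replaces, had -0.16, -0.34, -0.72 and 0.25 on the LIM arrays and -0.17, -0.51, -0.58 and -0.03 on the HER arrays. It lay below HF on 7 of 8 arrays, and LIM replicate 4 was the exception. Its mean was -0.24 ± 0.40 in LIM and -0.32 ± 0.27 in HER (SD, n = 4 each), not called in either (limma adjusted p = 0.285 and 0.187). PSMB4, another structural subunit, was between -0.34 and -0.13 on 7 arrays and 0.07 on LIM replicate 4, with a mean of -0.20 ± 0.07 (SE, n = 8; limma adjusted p = 0.0472) that was no longer called without any array except LIM replicate 4 (limma adjusted p = 0.0715 to 0.117). PSMB2 was not called, with a mean ratio of -0.11 ± 0.08 (SE, n = 8).

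The immune catalytic subunits had the lowest mean ratios over both breeds of all proteasome genes. PSMB8, the interferon-induced counterpart of PSMB5, had -0.96, -0.06, -0.67 and -0.65 on the LIM arrays and -0.44, -1.85, -1.33 and -1.55 on the HER arrays. All 8 arrays were below 0, and the LIM and HER values overlapped. In HER the mean was -1.29 ± 0.60 (SD, n = 4), a 2.45-fold lower level than in HF (limma adjusted p = 0.00785), and the LIM mean of -0.59 ± 0.38 (SD, n = 4) was not called (limma adjusted p = 0.0768). Over both breeds the ratio was -0.94 ± 0.16 (SE, n = 8; limma adjusted p = 0.00212). With normexp background correction on the local background as measured, a setting in which 0 of all probes were called in HER, the HER ratio of PSMB8 was -0.72 (limma adjusted p = 0.214).

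PSMB9, the immune counterpart of PSMB6, had -2.38, -0.11, -0.72 and 0.14 on the LIM arrays and -0.76, -2.45, -1.66 and -1.67 on the HER arrays. The LIM arrays ranged from the second lowest of the 8 values to slightly above 0, whereas all HER arrays were well below 0. In HER, the mean was -1.64 ± 0.69 (SD, n = 4), a 3.11-fold lower level (limma adjusted p = 0.0228), which was not called without HER replicate 2, 3 or 4 (-1.63 to -1.36; limma adjusted p = 0.0576 to 0.0980). The LIM mean of -0.77 ± 1.13 (SD, n = 4) was smaller than its SD (limma adjusted p = 0.170), and ranged from -0.23 without LIM replicate 1 to -1.07 without LIM replicate 4. Over both breeds the ratio was -1.20 ± 0.29 (SE, n = 8; limma adjusted p = 0.00938), or 2.30-fold lower. With normexp on the local background as measured, the HER ratio was -0.76 and the ratio over both breeds -0.72, and neither was called (limma adjusted p = 0.328 and 0.0622).

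The spread of these genes lay more in the beef channel than in the HF channel. On the scale of log2 signal relative to the channel median, PSMB9 spanned 0.17 to 2.89 over the beef channels, a range of 2.71, and 1.85 to 3.08 over the HF channels, a range of 1.24. PSMB8 spanned 1.02 to 2.73 in beef cells and 2.43 to 3.18 in HF cells. LIM replicate 1 and HER replicates 2, 3 and 4 had the lowest beef signals of PSMB9, and LIM replicates 2, 3 and 4 and HER replicate 1 the highest. The lowest beef signals of PSMB8 were on HER replicates 2 and 4 and LIM replicate 1.

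PSMB8 and PSMB9 lie near each other in the RefSeq annotation (assembly ARS-UCD2.0), with 1 protein-coding gene, the peptide transporter TAP1, between them. TAP1 had no matched probe. The difference between the log2 ratios of PSMB8 and PSMB5, the subunit it replaces, was -0.80, 0.27, 0.05 and -0.90 on the LIM arrays and -0.28, -1.34, -0.75 and -1.53 on the HER arrays. It was below 0 on 6 of 8 arrays and on all HER arrays, with means of -0.34 ± 0.59 in LIM and -0.97 ± 0.57 in HER (SD, n = 4 each).

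PSMB11, a catalytic subunit described from the thymus, was also well above background in every channel, with ratios of -0.52, -0.41, -0.40 and -0.24 on the LIM arrays and -0.36, -0.26, -0.30 and -0.12 on the HER arrays. All were below 0. Its means were -0.39 ± 0.11 in LIM and -0.26 ± 0.10 in HER (SD, n = 4 each; limma adjusted p = 0.0150 and 0.0781). Without LIM replicate 1, 2 or 3, the LIM mean was not called (limma adjusted p = 0.0525 to 0.0618). PSMB11 is the immediate neighbor of PSMB5, with 0 protein-coding genes between them, and whether its probe also measures PSMB5 was not tested. PSMB10, the immune counterpart of PSMB7, had no matched probe.

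**Figure D2:**
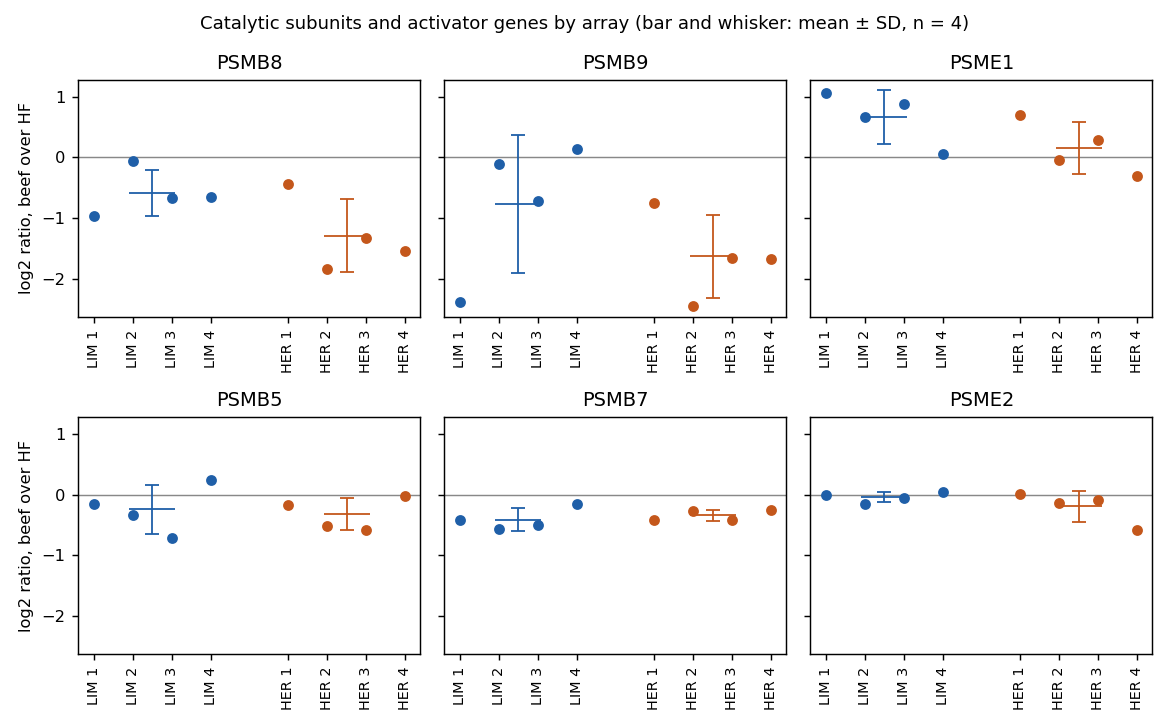
Log2 ratio of beef over HF (y axis) on each array (x axis) for 2 immune catalytic subunits (PSMB8, PSMB9), 2 constitutive ones (PSMB5, PSMB7) and the activator genes PSME1 and PSME2; points are arrays, bars and whiskers mean ± SD (n = 4). PSMB9 falls to -2.45 on HER replicate 2, whereas PSMB7 stays between -0.57 and -0.15 on all 8 arrays.

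PSME1 and PSME2 encode the subunits of an interferon-inducible ring that opens the core without ATP, and they lie in the annotation with 1 protein-coding gene (EMC9) between them. For PSME1, the ratio was 1.06, 0.66, 0.88 and 0.05 on the LIM arrays and 0.69, -0.04, 0.29 and -0.31 on the HER arrays. It was above 0 on all LIM arrays and on HER replicates 1 and 3. In LIM the mean was 0.66 ± 0.44 (SD, n = 4), a 1.58-fold higher level and the only higher call among the proteasome genes in LIM or HER (limma adjusted p = 0.0340). This call was lost without LIM replicate 1, 2 or 3 (0.53 to 0.66; limma adjusted p = 0.0907 to 0.125), and with scaling between arrays (0.59; limma adjusted p = 0.0536). In HER it was 0.16 ± 0.43 (SD, n = 4; limma adjusted p = 0.588).

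PSME2 had -0.01, -0.15, -0.05 and 0.05 on the LIM arrays and 0.01, -0.13, -0.08 and -0.58 on the HER arrays. Apart from HER replicate 4, it was within 0.15 of 0, and it was not called in LIM or HER (limma adjusted p = 0.827 and 0.253). The log2 ratio of PSME1 exceeded that of PSME2 on 7 of 8 arrays, by a mean of 0.70 ± 0.48 in LIM and 0.35 ± 0.25 in HER (SD, n = 4 each). The call of PSME1 over both breeds (0.41 ± 0.14, SE, n = 8; limma adjusted p = 0.0436) was lost without any of replicates 1 to 3 of either breed (0.32 to 0.44; limma adjusted p = 0.0653 to 0.107). It was also lost with scaling between arrays and without the filter on dim probes (limma adjusted p = 0.069 and 0.0572). PSME3, PSME4 and the inhibitor gene PSMF1 had no matched probe.

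The ATPases of the cap unfold the substrate and open the gate of the core. None of the 5 genes with a probe was called in LIM or HER, and 3 were lower in the mean (PSMC1, PSMC3 and PSMC5). The shares of all probes that were lower were 19.3% in LIM, 14.7% in HER and 26.2% in the mean. PSMC1 had -0.38, -0.36, -0.45 and -0.05 on the LIM arrays and -0.48, -0.32, -0.54 and -0.03 on the HER arrays. PSMC3 had -0.16, -0.18, -0.28 and -0.27 on the LIM arrays and -0.30, -0.09, -0.14 and -0.32 on the HER arrays. Both were below 0 on every array. Their means over both breeds were -0.33 ± 0.09 and -0.22 ± 0.07 (SE, n = 8; limma adjusted p = 0.0140 and 0.0264), or 1.25-fold and 1.16-fold lower. The call of PSMC3 was lost without LIM replicate 2 or 3 or HER replicate 1 or 4 (limma adjusted p = 0.0520 to 0.0726).

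PSMC5 had -0.36, -0.34, -0.59 and 0.02 on the LIM arrays and -0.31, -0.12, -0.33 and -0.16 on the HER arrays, with a mean of -0.27 ± 0.08 (SE, n = 8; limma adjusted p = 0.0266). LIM replicate 4 was the only array not below 0. The call was lost without LIM replicate 1, 2 or 3 or HER replicate 1 or 3 (limma adjusted p = 0.0583 to 0.0765). PSMC4 was between -0.29 and -0.20 on all LIM arrays and between -0.06 and 0.20 in HER, and the difference between the comparisons was not called (-0.26 ± 0.13, SE; limma adjusted p = 0.412). PSMC2 had values on both sides of 0 in each breed and a mean of -0.05 ± 0.08 (SE, n = 8).

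The non-ATPase subunits form the scaffold and the lid of the cap, bind ubiquitin chains and remove them. Of 9 genes, 0 were called in LIM, 0 in HER and 1, PSMD12, was lower in the mean. The shares of all probes that were lower were 19.3%, 14.7% and 26.2%. Without LIM replicate 4, PSMD1, PSMD6, PSMD11, PSMD12 and PSMD14 were lower in the mean (-0.50 to -0.23; limma adjusted p = 0.00311 to 0.0199), as were 30.1% of all probes. PSMD12, a lid subunit, had -0.88, -0.72, -0.39 and 0.21 on the LIM arrays and -0.38, -0.54, -0.33 and -0.10 on the HER arrays. Again LIM replicate 4 was the only array above 0. Over both breeds the ratio was -0.39 ± 0.12 (SE, n = 8; limma adjusted p = 0.0310), or 1.31-fold lower, and was not called without any of replicates 1 to 3 of either breed (limma adjusted p = 0.0611 to 0.0807).

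PSMD14, the enzyme that removes ubiquitin chains, had -0.35, -0.32, -0.21 and 0.20 on the LIM arrays and -0.31, -0.48, -0.25 and -0.10 on the HER arrays. Its mean of -0.23 ± 0.09 (SE, n = 8) narrowly missed the threshold (limma adjusted p = 0.0594). PSMD11, another lid subunit, had -0.31, -0.28, -0.28 and 0.60 on the LIM arrays and -0.47, -0.29, -0.38 and -0.22 on the HER arrays. Of these, 7 arrays were below 0, and LIM replicate 4 alone brought the LIM mean to -0.07 ± 0.45 (SD, n = 4), against -0.29 without it (limma adjusted p = 0.773 and 0.0489).

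PSMD2 and PSMD13 were the cap genes with means above 0, at 0.08 ± 0.07 and 0.15 ± 0.07 (SE, n = 8), and neither was called (limma adjusted p = 0.402 and 0.0959). PSMD13, a lid subunit, was above 0 on all LIM arrays (0.09 to 0.33) and on all HER arrays but replicate 3 (-0.03). PSMD2, a scaffold subunit, ranged from -0.08 to 0.23. PSMD1, PSMD3, PSMD4 (a ubiquitin receptor) and PSMD6 had means over both breeds between -0.20 and -0.10, and LIM replicate 4 was the highest array for each of them.

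The assembly chaperones included both genes of the pair that starts the alpha ring. PSMG1 had -0.78, -0.56, -0.53 and 0.08 on the LIM arrays and -0.77, -0.67, -0.61 and -0.28 on the HER arrays. Its partner PSMG2 had -0.86, -0.75, -0.76 and -0.05 on the LIM arrays and -0.86, -1.03, -0.58 and -0.39 on the HER arrays. In both genes, replicate 4 was nearest to 0 in each breed, and the other arrays were clearly below 0.

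Both were called in LIM and in HER. PSMG1 had means of -0.45 ± 0.37 in LIM and -0.58 ± 0.21 in HER (SD, n = 4 each; limma adjusted p = 0.0496 and 0.0268). PSMG2 had means of -0.61 ± 0.37 and -0.71 ± 0.28 (SD, n = 4 each; limma adjusted p = 0.0212 and 0.0175), or 1.52-fold and 1.64-fold lower than in HF. The LIM calls were lost without LIM replicate 1, 2 or 3 (limma adjusted p = 0.145 to 0.175 for PSMG1 and 0.0784 to 0.0875 for PSMG2), and that of PSMG1 also without any HER array (limma adjusted p = 0.0555 to 0.0714). The HER calls were lost without HER replicate 1 or 2, and for PSMG1 also without HER replicate 3 (limma adjusted p = 0.0748 to 0.107). PSMG3, a chaperone of a different pair, had -0.32, -0.09, 0.30 and 0.59 on the LIM arrays and -0.16, 0.09, -0.13 and 0.14 on the HER arrays. It lay on both sides of 0 and was not called. The sign of its HER mean (-0.01) differed with the normalization, and its LIM mean (0.12) was -0.04 without LIM replicate 4.

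PSME3IP1, which is no subunit, had -0.66, -0.72, -0.32 and -0.32 on the LIM arrays and -0.75, -0.36, -0.47 and -0.07 on the HER arrays. All were below 0, with means of -0.50 ± 0.22 in LIM and -0.41 ± 0.28 in HER (SD, n = 4 each; limma adjusted p = 0.0208 and 0.0561). The LIM call was lost without LIM replicate 1 or 2 (limma adjusted p = 0.0760 and 0.0845).

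**Figure D3:**
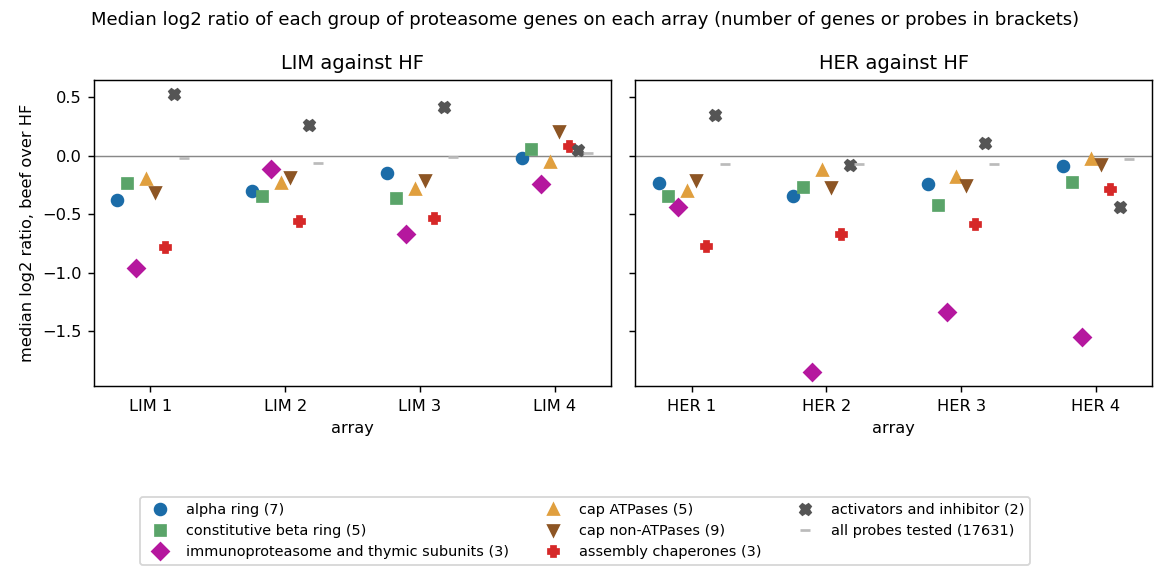
Median log2 ratio of beef over HF (y axis) of the genes of each role on each array (x axis), with the median of all tested probes as a grey dash; the number of genes or probes is in the legend. The immunoproteasome and thymic subunits are lowest on HER replicates 2, 3 and 4 (-1.85, -1.33 and -1.55), and LIM replicate 4 lies near or above 0 for most roles.

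Set side by side by role, the median ratio per array ranged from -0.38 to -0.02 for the alpha ring and from -0.42 to 0.06 for the constitutive beta ring. It ranged from -0.30 to -0.03 for the ATPases and from -0.31 to 0.21 for the non-ATPase subunits of the cap. For the assembly chaperones it ran from -0.78 to 0.08, and for the immunoproteasome and thymic subunits from -1.85 to -0.11. The constitutive core and the cap overlapped, while the chaperones had the lowest or second lowest median of all roles on 6 arrays. These are descriptions of 2 to 9 genes each, and differences between roles were not tested.

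The ratios in LIM and in HER were also tested against each other. Of the 35 genes, 0 were called in the difference of the ratios (0.233% of all probes were), 0 had an unadjusted limma p under 0.05 and the lowest limma adjusted p was 0.362. For PSMB8, the LIM ratio was higher by 0.71 ± 0.32 (SE), and for PSMB9 by 0.87 ± 0.57 (SE; limma adjusted p = 0.362 and 0.534). For PSME1, it was higher by 0.50 ± 0.29 (SE; limma adjusted p = 0.460). In these differences, the breed cannot be told apart from the slide and the orientation of the dyes.

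Other genes of the ubiquitin-proteasome pathway were taken from a list of 42, of which 20 had a probe. In LIM, 2 were lower and 4 higher (19.3% and 16.6% of all probes), in HER, 0 were lower and 1 was higher (14.7% and 10.7%), and in the mean, 2 were lower and 3 higher (26.2% and 21.4%). The medians were -0.07 in LIM and -0.02 in HER. AKIRIN2, which carries proteasomes into the nucleus, and UBLCP1, a phosphatase of the proteasome, were lower in LIM, at -0.38 ± 0.26 and -0.33 ± 0.10 (SD, n = 4; limma adjusted p = 0.0427 and 0.0284). Neither was called in HER (-0.12 and -0.14). NFE2L1, a transcription factor that induces proteasome genes, was higher in LIM, at 0.75 ± 0.35 (SD, n = 4; limma adjusted p = 0.0214), and 0.22 ± 0.50 in HER. The ubiquitin-activating enzyme gene UBA6 and ZFAND5, which stimulates the proteasome, were higher in LIM, at 0.58 and 0.33. In HER they were -0.13 and -0.05, and neither was called. POMP, the chaperone of the beta ring, was not called (-0.08 and 0.01).

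A list of interferon and antigen processing genes, set beside PSMB8, PSMB9, PSME1 and PSME2, included more genes higher than lower in beef cells. Of a list of 24 genes, 13 had a probe and 12 were tested. In LIM, 1 was lower and 6 were higher (19.3% and 16.6% of all probes), in HER, 1 was lower, 3 were higher and 8 were not called (14.7% lower and 10.7% higher of all probes), and in the mean, 1 was lower and 8 were higher (26.2% and 21.4%). The median was 0.94 in LIM and 0.55 in HER. Higher in both breeds were PDIA3 (1.52 and 1.65) and TAPBP (1.21 and 1.09), which load peptides onto class I molecules. CALR was higher in HER (0.69) and not called in LIM (0.31). The interferon-related genes IRF9, MX2 and GBP5 were not called in LIM, in HER or in the mean. B2M, the invariant chain of these molecules, was higher in LIM, at 0.86 ± 0.65 (SD, n = 4; limma adjusted p = 0.0353), as were the heavy chain genes BOLA and JSP.1 and the peptide trimmer ERAP1.

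ISG15, a ubiquitin-like modifier induced by interferon, was the only gene of this list called lower. It had -3.33, -1.31, -2.04 and -0.19 on the LIM arrays and -1.64, -1.90, -2.59 and -1.54 on the HER arrays. It was below 0 throughout, with means of -1.72 ± 1.32 and -1.92 ± 0.48 (SD, n = 4 each; limma adjusted p = 0.0157 and 0.0163). MX1, another interferon-induced gene, had 2.09, -0.44, 1.23 and 2.04 on the LIM arrays and 1.17, 1.45, 0.23 and 2.15 on the HER arrays. It was above 0 on 7 of 8 arrays and called in the mean alone (1.24; limma adjusted p = 0.0110). Thus PSMB8, PSMB9 and ISG15 were lower and PSME1, MX1 and the class I genes higher in the mean of the same arrays. TAP2, IRF1 and NLRC5 had no matched probe.

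**Figure D4:**
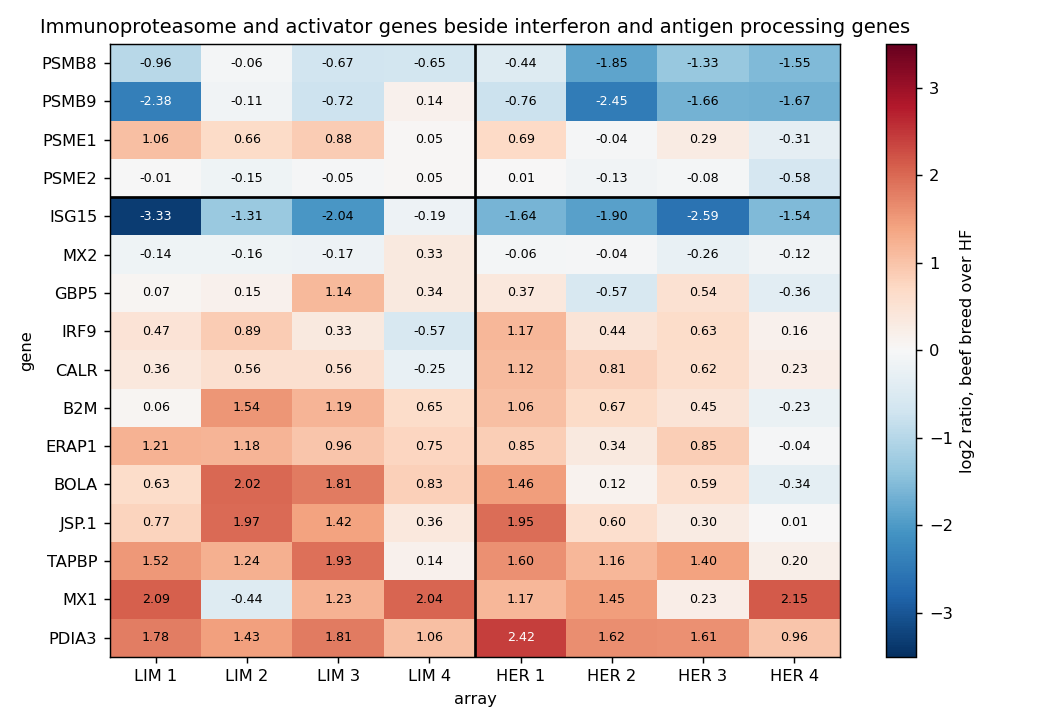
Log2 ratio of beef over HF on each array (columns, LIM left and HER right of the line) for PSMB8, PSMB9, PSME1 and PSME2 above the line and the 12 tested interferon and antigen processing genes below it, ordered by their mean; blue is lower and red higher in beef cells. PSMB8, PSMB9 and ISG15 are mostly blue, whereas TAPBP and PDIA3 are red on all 8 arrays.

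The cultures also differed in markers of other cells. All 8 fibroblast markers were well above background in all channels, and 5 were higher and 1 was lower in LIM (16.6% and 19.3% of all probes), 5 higher and 2 lower in HER (10.7% and 14.7%). COL1A1, COL1A2, COL3A1 and LUM were higher in both breeds, DCN in LIM alone and THY1 in HER alone. PDGFRA was lower in both (-1.48 in LIM and -1.36 in HER). TCF21 was lower in HER (-1.69) and not called in LIM (-0.57). The mean over this list, whose genes thus went in both directions, ranged from 0.15 to 1.91 over LIM arrays. Over HER arrays it ranged from 0.10 to 1.64, and it was lowest on replicate 4 in each breed. The mean over the 9 muscle markers ranged from 1.56 to 2.96 in LIM and from 1.87 to 2.60 in HER. Endothelial markers (ERG, KDR and TEK, none called) had array means of -0.31, 2.96, 0.69 and 3.23 in LIM and 3.29, -0.33, -2.82 and 1.20 in HER. Arrays with low PSMB9 (LIM replicate 1, HER replicates 2 and 3) were also those with the lowest endothelial means, while HER replicate 4 was not. Of 6 leukocyte markers with a probe, AIF1, CD3E and ITGAM were well above background in 2, 1 and 0 of 16 channels. Of the 3 tested, CD68 was higher in both breeds (0.68 and 0.94), and CD14 and LAPTM5 were not called. The 3 markers of dividing cells with a probe (CDK1, MCM5 and PCNA) had array means of -1.53 to 0.52 in LIM and -0.92 to -0.07 in HER. Replicate 4 had the highest of these means in each breed. Of these genes, MCM5 was lower in LIM, at -1.06 ± 0.74 (SD, n = 4; limma adjusted p = 0.0135). The part of other cells and of cell division in the proteasome ratios was not tested.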

How the data were processed

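The authors deposited, for each of the 8 arrays, scanner output made with Feature Extraction 10.7.3.1, holding spot intensity in red (Cy5) and green (Cy3) and the log10 ratio of red over green, background-subtracted and dye-normalized by that software. The deposited series table holds the same log10 ratio. The ratio was multiplied by the log2 of 10 and its sign was turned on the HER arrays, where the beef cells were green. Control spots and outlier spots (6 to 130 per array) were left out, and spots of a probe were averaged. A probe was tested if at least 4 of the 16 channels were well above background, which held for 17631 of 21475 probes. Breed, dye and replicate number came from the labels. Symbols came from RefSeq accessions (7793 of 20693 matched, assembly ARS-UCD2.0). No coordinates or sequences are given.

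A mean for each comparison was fitted to all 8 arrays with limma 3.58.1 (lmFit, eBayes) in R 4.3.3, and tables were made with Python 3.11.15. The mean and the difference of both comparisons were contrasts of this fit. The deposited intensity columns served the single-channel values and the normexp alternatives (offset 50). The methods name a t-test in GeneSpring 13.0, run as an alternative. Other alternatives covered background correction, centring and scaling, the filter on dim probes, separate fits, a block on the replicate number, array weights and leaving out each array. The fit was tested on simulated data. The number of arrays limits the precision. The p-values of the main fit measure the spread of the ratios between arrays, pooled over both comparisons.

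The genes and lists were chosen with earlier results of these data known. All proteasome genes are named, with values by array for the catalytic and activator genes and for the 3 largest mean ratios of the other roles. Of the pathway list, the 3 highest and 3 lowest called genes were to be named, and 1 result of this list is not reported here. Genes of other lists, and further proteasome genes with values by array, were named after their values were seen.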

Additional observations from a re-analysis of the deposited data

Results flagged for a closer look

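For each proteasome gene and each median over a role, the 4 arrays of a comparison were searched for an array far from the rest, and 5 of 86 such groups of 4 held one. Chance marks about 1 in 20 groups. In LIM, replicate 4 stood apart for PSMB4 (0.07, the others -0.25 to -0.23), PSMD11 (0.60, the others -0.31 to -0.28) and PSMG2 (-0.05, the others -0.86 to -0.75). In HER, replicate 4 stood apart for PSMC4 (0.20, the others -0.06 to -0.04) and replicate 3 for PSMD13 (-0.03, the others 0.17 to 0.21). The values are log2 ratios of beef over HF.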

How the results depend on the processing

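The number of proteasome genes called was 9 in LIM, 5 in HER and 17 in the mean of both. With array weights it was 16 in LIM and 13 in HER, and with scaling between arrays 10 in HER. The calls over all 17631 probes rose as well. In LIM, they went from 3409 lower and 2920 higher to 4451 and 3914 with array weights. In HER, 2586 lower and 1887 higher became 3599 and 2576 with array weights, and 3480 and 2460 with scaling. The methods' t-test gave 4 genes in LIM at the methods' threshold and 9 in the mean, as did the limma p at that threshold in the mean (9), and after Benjamini-Hochberg adjustment it gave 1 in LIM and 0 in HER. The calls over all probes under these settings are not given here. LIM arrays fitted alone gave 0 genes, while 2244 of all probes were lower and 2016 higher. With normexp on the local background as measured, HER gave 0 genes and 0 of all probes, the calls of PSMB7 and PSMA6 in LIM and of PSMB9, PSMA7, PSMC5, PSMD12 and PSME1 in the mean were lost (limma adjusted p = 0.0514 to 0.208), and the HER medians of the constitutive beta ring and of the immunoproteasome and thymic subunits were -0.54 and -0.68. Leaving out 1 array gave 1 to 14 genes in LIM, 1 to 11 in HER and 11 to 22 in the mean, and 0 in the difference. The cause of these changes was not tested. Small ratios changed sign: PSME1 in HER was -0.02 without HER replicate 1 and up to 0.31 without another array, and PSMD11 in LIM was 0.01, 0.01 and 0.00 without LIM replicate 1, 2 or 3 and down to -0.29 without LIM replicate 4. Leaving out 1 array, PSMG3 ranged from -0.04 to 0.27 in LIM and from -0.02 to 0.13 in the mean, lowest without LIM replicate 4, and from -0.07 to 0.03 in HER. In HER, PSMG3 was 0.01 and 0.04 with normexp (background as measured, and outlying background replaced), 0.04 without background correction, 0.05 with median centring, 0.00 with scaling, and 0.03 and 0.03 without HER replicate 1 or 3. Among the 63 ratios followed under every alternative, no other changed sign. Same-numbered arrays of both comparisons deviated together at correlations of -0.236, 0.129, 0.304 and 0.540, and not every array correlated best with its own number, so the numbers were not taken as pairs. With the replicate number as a block, 10 genes were called in LIM, 4 in HER, 18 in the mean and 0 in the difference, and the calls of PSMB7 and PSMB9 in HER and of PSMC3 in the mean were lost (limma adjusted p = 0.0691, 0.0570 and 0.0544). A mean over several probes of a gene was not run, since every gene had 1 probe. With 4 arrays per comparison, ratios near 0 could not be told from 0.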
